A study of Mus musculus with 10 samples.

Results

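The genes described here are 37 parts of the NF-κB signalling pathway, measured as messenger RNA in eosinophils sorted from mouse lung. They were found by gene symbol in the deposited table of read counts, which listed all 37 among its 35725 gene rows, and all 37 passed the filter on low counts that left 15586 genes for testing. The libraries came from 5 samples labelled P2ry14-null and from 5 labelled WT, of strain C57BL/6J, and all 10 were from male mice. No label gives the ages, how the null allele was made or the strain it is on. P2ry14 encodes a receptor for UDP-glucose that couples to Gi proteins, and the study asked how its loss affects eosinophils in allergic asthma. Every mouse of either genotype had gone through the same asthma model, in which ovalbumin (50 µg) together with a protease of Aspergillus oryzae (20 µg) was placed in the oropharynx on a pair of occasions a week apart, and an aerosol of 1% ovalbumin followed 7 days later. Eosinophils were sorted 16 h after the aerosol, so no unchallenged cells were compared.

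NF-κB is a family of dimeric transcription factors that wait in the cytoplasm, bound to IκB proteins. Signals from receptors for TNF, interleukin-1 or microbial products pass through TRAF and RIPK adaptors to the IκB kinase complex, which marks IκB for destruction and lets the dimers enter the nucleus. Among the first genes they switch on are their own inhibitors, such as Nfkbia and Tnfaip3, so the pathway holds itself in check, and in eosinophils it is known for its part in survival and cytokine production. The genes were therefore read in 2 classes, assigned from textbook knowledge but with earlier results of these data already known. The classes were 17 inducible feedback genes, which NF-κB itself or inflammatory signals are known to induce, and 20 constitutive parts of the machinery.

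The DNA letters that NF-κB binds, the κB sites, are shown for promoters of both classes, because the inducible class is defined by its known response to NF-κB and inflammatory signals. Of the 37 genes, 29 matched RefSeq promoter windows of GRCm38.p6 (mm10), each reaching from 250 bases before to 50 bases after a transcript start. Nfkb1, Nfkbiz, Relb, Map3k8, Cd83, Ripk2, Ikbkb and Malt1 had none in the table. Stretches before the start are given 5′ to 3′ on the gene's strand, with matches to the 10-base κB consensus on either strand in capitals.
Nfkbia, chr12:55492648-55492696, minus strand: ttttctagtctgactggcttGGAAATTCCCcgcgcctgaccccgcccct
Tnfaip3, chr10:19015411-19015555, minus strand: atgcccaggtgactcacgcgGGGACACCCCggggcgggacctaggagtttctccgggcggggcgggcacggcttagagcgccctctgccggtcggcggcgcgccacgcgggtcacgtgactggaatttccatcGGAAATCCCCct
Nfkbid, chr7:30422160-30422254, plus strand: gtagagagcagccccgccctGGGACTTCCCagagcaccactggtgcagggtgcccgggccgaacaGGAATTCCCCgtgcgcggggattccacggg
Nfkbie, chr17:45555574-45555623, plus strand: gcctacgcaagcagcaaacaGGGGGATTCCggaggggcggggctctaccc
Nfkb2, chr19:46304678-46304736, plus strand: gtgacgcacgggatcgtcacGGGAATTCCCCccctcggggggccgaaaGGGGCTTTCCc
Traf3, chr12:111166340-111166369, plus strand: cgcgcgcccaggcggcccgcGGGGATTTCC
Cyld, chr8:88696853-88696902, plus strand: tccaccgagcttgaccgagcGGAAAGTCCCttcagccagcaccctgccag
The first 5 are inducible and the last 2 constitutive. The match nearest the start began 29 bases before it in Nfkbia, 12 in Tnfaip3 and 10 in Traf3, and in Nfkb2 a pair of overlapping matches formed a run of 11 capitals.

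Matches to the κB consensus were found in 8 of 11 inducible genes with a window (72.7%), namely Bcl3, Nfkb2, Nfkbia, Nfkbid, Nfkbie, Rel, Tnfaip3 and Tnip1. They were found in 5 of 18 constitutive genes (27.8%), namely Bcl10, Cyld, Map3k7, Tank and Traf3. Over all 27025 genes in the promoter table the share was 9.55%. A narrower motif of 10 bases, GGG followed by any 2 bases and TTTCC, was searched on both strands too. A string can match it and the consensus alike. It was present in 4 of 11 inducible genes (36.4%), in 5 of 18 constitutive genes (27.8%) and in 1.89% of all genes. A match is a string of letters in the window and does not show that a site is used. Some genes have several overlapping windows, and a gene was counted once if any window held a match.

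The libraries held 67161968 to 150851958 counted reads in P2ry14-null and 117799335 to 185124080 in WT. P2ry14 checked the labels: it had 21.8 to 24.2 counts per 1e+06 reads (CPM) in P2ry14-null against 190 to 229 CPM in WT, with no overlap, and a log2 fold change of -3.19 ± 0.06 (SE; edgeR adjusted p = 3.74e-12). All 10 eosinophil marker genes were detected, and their summed level was 10260 to 10810 CPM in P2ry14-null and 10150 to 10830 CPM in WT. Alox15 alone had 5049 CPM in P2ry14-null and 5013 CPM in WT on average. Log2 fold changes were below 0 in 5 of the 10 and above 0 in 5. Of the 10, 1 had an unadjusted edgeR p under 0.05, Epx (0.23 ± 0.07, higher in P2ry14-null), against 1.46% of all genes in that direction. P2ry14-null library 2 stood apart in markers of other cells. Its 8 class II and dendritic cell genes summed to 424 CPM, and the other 9 libraries stayed below 144 CPM. Its 8 tested alveolar macrophage genes summed to 2180 CPM, where the other 9 did not pass 1009 CPM. Its 6 epithelial genes summed to 72.5 CPM, where the other 9 did not pass 24.2 CPM, and its 6 B cell genes to 29.2 CPM, where the other 9 did not pass 23.3 CPM. In bulk RNA of this kind, fewer cells of a type and less RNA per cell cannot be told apart. Separate mice behind the libraries of a group are not stated in the labels, so p-values measure the spread between these libraries, which may be technical.

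Over all 15586 genes edgeR called 6 (0.0385%) at an adjusted p under 0.05, of which 4 (0.0257%) were lower in P2ry14-null. DESeq2 was run without that low-count filter on 25217 genes and called 19 of them. No NF-κB gene was called by edgeR, by DESeq2 or under any other setting tried, including each library left out in turn. At an unadjusted p under 0.05, 9 of the 37 had a lower level in P2ry14-null and none a higher one, where 4.13% of all genes met that threshold in either direction. Of the 9, 7 were inducible (41.2% of 17) and 2 constitutive (10% of 20), where 2.67% of all genes met the threshold with a lower level and 1.46% with a higher one. The differences of the 37 genes given below are therefore values that did not pass the test across all genes, with an edgeR adjusted p of 0.999 for each of the 37.

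The pathway's genes spanned a wide range of levels, compared here per exon length as reads per kilobase of exon per 1e+06 reads (RPKM). Exon length was the union of all annotated exons of a gene, from 1610 bases for Nfkbia to 19078 bases for Ikbkb. A gene with many annotated exon bases that these cells do not use therefore reads lower. Nfkbia, which encodes IκBα, the inhibitor that is remade soonest after activation, stood at 1606 ± 150 RPKM in P2ry14-null and 1953 ± 224 RPKM in WT (SD, n = 5 each), rank 10 of 14081 genes with an exon length in WT. Tnfaip3, which encodes the ubiquitin-editing brake A20, came next with 573 ± 52.4 RPKM in P2ry14-null and 657 ± 32.1 RPKM in WT, rank 41. Together these 2 genes made up 69.9% ± 0.504 of the summed RPKM of all 37 genes in P2ry14-null and 71.7% ± 0.911 in WT. Nfkbid and Nfkbiz followed at 210 and 148 RPKM in P2ry14-null and 234 and 185.3 RPKM in WT. Zc3h12a, the RNase Regnase-1, was the only other gene above 50 RPKM. The highest constitutive gene was Tab2, an adaptor of the TAK1 kinase, at 41.2 RPKM in P2ry14-null and 42.0 RPKM in WT. Tnfrsf1b, the second TNF receptor, had 35.0 RPKM in P2ry14-null and 36.8 RPKM in WT.

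The inducible class also held the lowest genes. Traf1, an adaptor of TNF receptors, had 0.180 ± 0.0556 RPKM in P2ry14-null and 0.203 ± 0.0221 RPKM in WT, and Ikbke, an IκB kinase relative, had 0.201 ± 0.0690 RPKM in P2ry14-null and 0.201 ± 0.0224 RPKM in WT. Map3k8 and Cd83 lay between 1.63 and 2.20 RPKM on average in either group. In contrast, all 20 constitutive genes lay between 4.22 RPKM (Malt1) and 42.0 RPKM (Tab2) in WT. Neighbours in the order often did not differ beyond their spread, such as Nfkb2 (41.4 ± 8.87 RPKM), Nfkbie (40.7 ± 3.38 RPKM) and Tab2 (42.0 ± 1.98 RPKM) in WT.

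**Figure D1:**
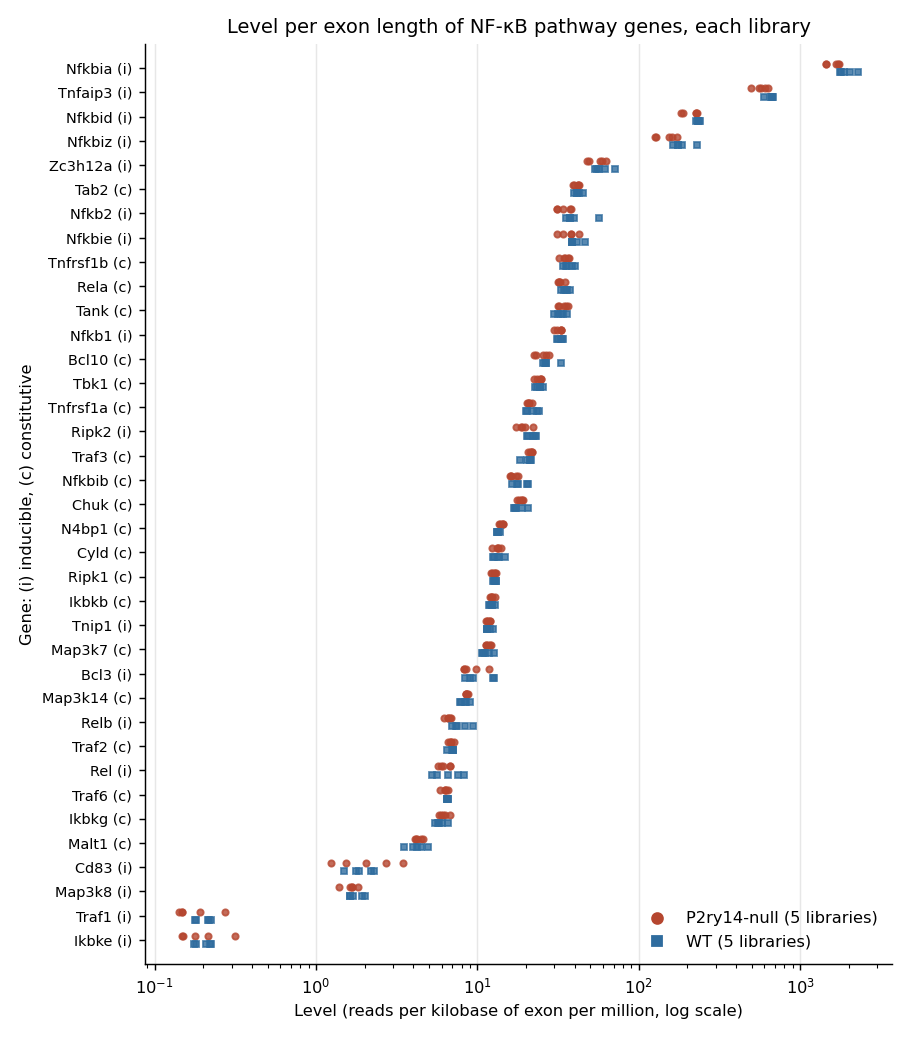
Level per exon length (RPKM, log axis) of all 37 genes, ordered by WT mean, with 1 point per library (circles, P2ry14-null; squares, WT; 5 each). Nfkbia and Tnfaip3 stand above all others at 1606 and 573 RPKM on average in P2ry14-null and 1953 and 657 RPKM in WT, and Traf1 and Ikbke stand lowest near 0.2 RPKM.

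The cytoplasmic IκB proteins mask the nuclear localization signal of NF-κB dimers. Nfkbia (gene ID 18035, chr12:55489409-55492647 of mm10, minus strand) had 2692, 2325, 2771, 2816 and 2326 CPM in P2ry14-null libraries 1 to 5, against 3295, 3008, 2868, 3703 and 2845 CPM in WT libraries 1 to 5. The groups did not overlap, but the highest P2ry14-null library lay only just below the lowest WT library. The mean in P2ry14-null was 82.3% of that in WT, with a log2 fold change of -0.28 ± 0.08 (SE; exact permutation p = 0.0079, the smallest this design allows). Nfkbie, which encodes IκBε, had 116, 94.5, 130, 116 and 104 CPM in P2ry14-null, against 126, 117, 118, 141 and 118 CPM in WT. Its groups overlapped, with P2ry14-null library 3 above 4 of the WT libraries (log2 fold change -0.15 ± 0.08, and -0.09 if either P2ry14-null library 2 or WT library 4 is left out; exact permutation p = 0.167). Nfkbib, which encodes IκBβ and is counted here as constitutive, had 37.7, 34.8, 38.8, 34.5 and 34.8 CPM in P2ry14-null, against 44.7, 38.6, 35.6, 44.0 and 38.3 CPM in WT. WT libraries 1 and 4 were high and the others lay within or near the P2ry14-null range (log2 fold change -0.16 ± 0.07; exact permutation p = 0.0556). Of the exon bases of Nfkbib, 16.4% are shared with genes on the opposite strand, and the strand setting of the counting is unknown.

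The atypical IκB proteins act in the nucleus, where IκBζ (Nfkbiz) and Bcl-3 help to switch on selected targets and IκBNS (Nfkbid) also limits cytokine genes. Nfkbiz (gene ID 80859, chr16:55811377-55838641, minus strand) had 775, 638, 871, 804 and 629 CPM in P2ry14-null, against 876, 814, 931, 1148 and 880 CPM in WT. Only P2ry14-null library 3 reached above the lowest WT library. Its log2 fold change of -0.32 ± 0.11 was the largest in size among the 37 genes, with a mean at 79.9% of WT (exact permutation p = 0.0159). Nfkbid had 530, 440, 538, 528 and 428 CPM in P2ry14-null, against 564, 543, 528, 555 and 549 CPM in WT. The WT libraries lay within a narrow band, while P2ry14-null libraries 2 and 5 were about 100 CPM below the other 3 (log2 fold change -0.15 ± 0.07; exact permutation p = 0.0238). Bcl3 ranged from 20.3 to 29.3 CPM in P2ry14-null and from 20.7 to 31.6 CPM in WT, with WT libraries 1 and 4 and P2ry14-null library 3 high (log2 fold change -0.16 ± 0.13). With P2ry14-null library 3 left out the Bcl3 value was -0.25, and with WT library 1 or 4 left out it was -0.08 or -0.07.

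The 5 subunits form the DNA-binding dimers: Rela, Rel and Relb carry an activation domain, and Nfkb1 and Nfkb2 encode precursors that are cut to p50 and p52. Relb (gene ID 19698, chr7:19606217-19629438, minus strand), the partner of p52 in the non-canonical pathway, had 26.1, 25.4, 26.6, 25.5 and 24.3 CPM in P2ry14-null, against 32.7, 29.2, 27.2, 36.5 and 28.5 CPM in WT. The groups did not overlap, and P2ry14-null libraries lay close together (SD 0.883 CPM) while WT libraries spread more widely (SD 3.75 CPM). Relb had the smallest unadjusted p of the 37 genes (0.0027; log2 fold change -0.27 ± 0.07; exact permutation p = 0.0079). Relb and Nfkbia were the 2 of 37 genes whose groups did not overlap, where 0.648% of all genes separated in either direction and 0.359% with P2ry14-null below.

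Nfkb2 had 155, 142, 175, 171 and 143 CPM in P2ry14-null, against 172, 181, 162, 262 and 172 CPM in WT. The difference rested largely on WT library 4: the log2 fold change was -0.27 ± 0.12 with it and -0.12 without it (exact permutation p = 0.0714 with it). Opposite-strand genes share 18.1% of the exon bases of Nfkb2. Rela, which encodes the transactivating subunit p65 and is not itself strongly induced, had 99.1, 98.3, 107, 99.9 and 97.5 CPM in P2ry14-null, against 109, 110, 101, 115 and 106 CPM in WT. P2ry14-null library 3 reached into the WT range (log2 fold change -0.11 ± 0.05; exact permutation p = 0.0238). Rel ranged from 42.3 to 50.7 CPM in P2ry14-null and from 39.1 to 61.6 CPM in WT, so the WT range enclosed the P2ry14-null one (log2 fold change -0.09 ± 0.11, and 0.0055 without WT library 4). Nfkb1, at 386 ± 18.5 CPM in P2ry14-null and 393 ± 13.9 CPM in WT, differed by less than the spread between libraries (log2 fold change -0.03 ± 0.05).

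Set against the subunits, the cytoplasmic inhibitors were abundant as messenger RNA when summed, and the sum came mostly from Nfkbia. Nfkbia had 1606 of the 1660 RPKM in P2ry14-null and 1953 of the 2012 RPKM in WT. In WT, Nfkbie (40.7 RPKM) and Nfkbib (18.6 RPKM) lay within the range of single subunits, from 6.65 RPKM (Rel) to 41.4 RPKM (Nfkb2). These values and the ratios below depend on annotated exon length, which was 1610 bases for Nfkbia, 4584 for Nfkb2 and 12061 for Nfkb1. In CPM, Nfkb1 (393 in WT) lay above Nfkb2 (190 in WT). The summed RPKM of Nfkbia, Nfkbib and Nfkbie was 14.8 ± 0.837 times that of the 5 subunits in P2ry14-null and 16.2 ± 0.854 times in WT (SD, n = 5 each). By library the ratio was 15.5, 13.8, 14.9, 15.8 and 14.2 in P2ry14-null, against 17.6, 16.1, 16.1, 16.3 and 15.2 in WT, so the groups overlapped at P2ry14-null libraries 1 and 4 and WT library 5. No test is given for such sums, because their members were chosen with results of these data known.

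Tnfaip3 leads the genes that end the signal by trimming ubiquitin chains or destroying messenger RNA. Tnfaip3 (gene ID 21929, chr10:19000910-19015410, minus strand) had 4009, 3593, 4593, 4365 and 4148 CPM in P2ry14-null, against 4928, 4347, 4742, 4843 and 4861 CPM in WT. WT library 2 lay among the higher P2ry14-null libraries, and the other 4 WT libraries lay above all of them (log2 fold change -0.20 ± 0.07; exact permutation p = 0.0238). Tnip1, which encodes the A20 partner ABIN-1, did not follow: it had 41.3 ± 1.03 CPM in P2ry14-null and 41.5 ± 1.63 CPM in WT (log2 fold change -0.0076 ± 0.04). Zc3h12a had 159 ± 18.05 CPM in P2ry14-null and 172 ± 20.5 CPM in WT (-0.11 ± 0.09). Leaving out P2ry14-null library 2 or 5 brought this log2 fold change to -0.06 or -0.07, and leaving out WT library 4 brought it to -0.03. Cyld, a deubiquitinase, had 167 ± 7.39 CPM in P2ry14-null and 169 ± 11.0 CPM in WT (-0.02 ± 0.05).

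N4bp1, an RNase and inhibitor of cytokine production, had 167, 166, 175, 176 and 173 CPM in P2ry14-null, against 164, 162, 161, 168 and 164 CPM in WT. It had the largest positive log2 fold change of the constitutive genes, 0.07 ± 0.04, and P2ry14-null libraries 1 and 2 overlapped WT library 4 (exact permutation p = 0.0238).

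**Figure D2:**
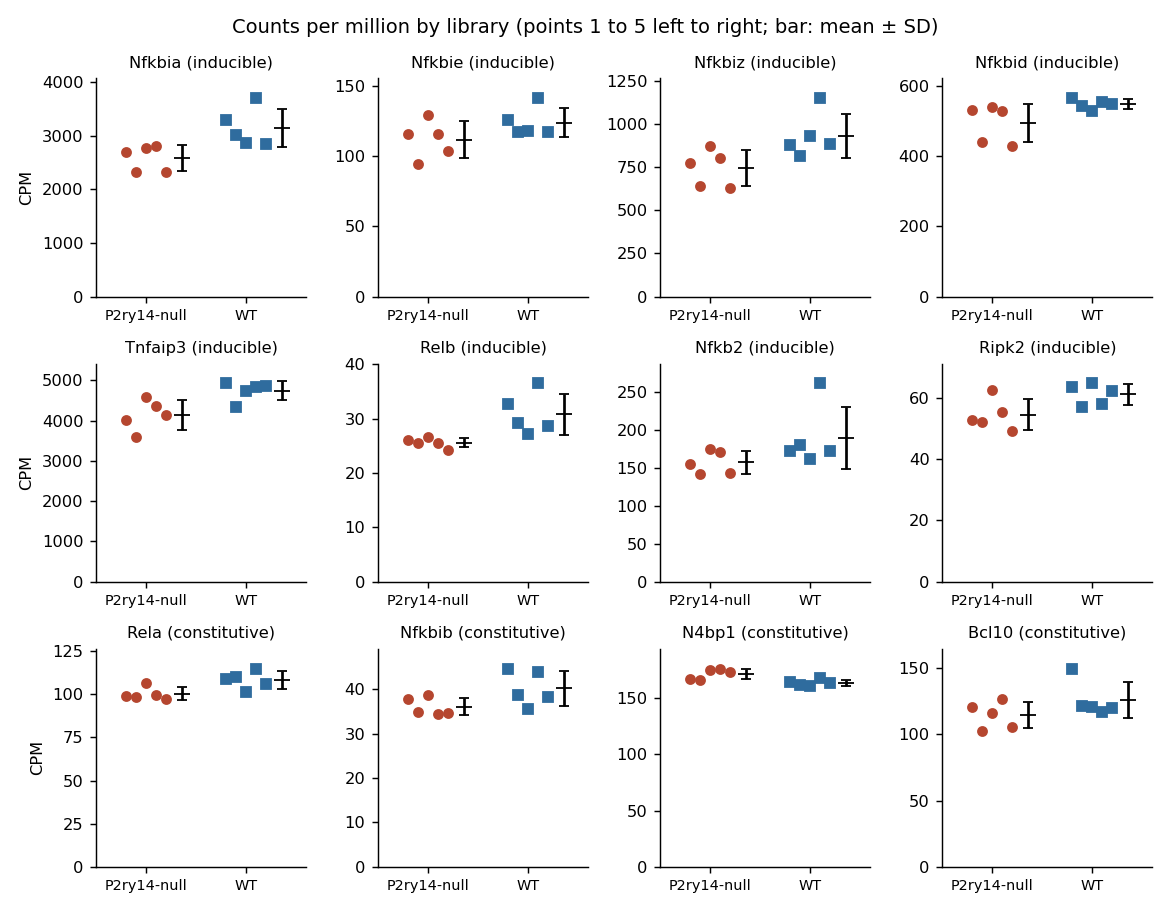
CPM in each library for the 8 inducible and 4 constitutive genes with the smallest unadjusted p (circles, P2ry14-null; squares, WT; libraries 1 to 5 from left to right; bars, mean ± SD, n = 5; axes start at 0). Relb and Nfkbia are the 2 genes without overlap between groups, and WT library 4 stands high for Nfkb2 at 262 CPM.

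Kinases and kinase partners that carry the signal to IκB, read here apart from Ripk1 and Ripk2, were close to equal in both groups. The IκB kinase complex consists of the catalytic subunits encoded by Ikbkb and Chuk and the scaffold NEMO, encoded by Ikbkg. Ikbkb had 235 ± 6.66 CPM in P2ry14-null and 234 ± 7.85 CPM in WT (log2 fold change 0.0050 ± 0.04). Chuk had 94.3 ± 3.05 CPM in P2ry14-null and 92.4 ± 7.94 CPM in WT (0.03 ± 0.06). Ikbkg had 50.1 ± 2.95 CPM in P2ry14-null and 47.8 ± 3.52 CPM in WT (0.07 ± 0.06). Upstream of them, log2 fold changes were 0.03 ± 0.05 for Map3k7 (TAK1), -0.03 ± 0.05 for Tab2, 0.05 ± 0.04 for Map3k14 (the NIK kinase of the non-canonical route) and -0.0099 ± 0.05 for Tbk1. Tab2, chosen for its high level, had 259, 242, 258, 262 and 242 CPM in P2ry14-null, against 254, 243, 276, 254 and 260 CPM in WT. The inducible kinase Map3k8 (TPL-2), which is released when p105 is degraded, had 7.35 ± 0.679 CPM in P2ry14-null and 8.005 ± 0.822 CPM in WT (-0.12 ± 0.09).

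Among the adaptors, Ripk2, the kinase that links NOD receptors to the pathway, had 52.9, 52.2, 62.4, 55.5 and 49.1 CPM in P2ry14-null, against 63.6, 57.1, 64.7, 58.0 and 62.2 CPM in WT. P2ry14-null library 3 lay within the WT range and the other 4 below it (log2 fold change -0.17 ± 0.06; exact permutation p = 0.0397). Bcl10, which joins CARD proteins to the protease encoded by Malt1, had 121, 103, 116, 127 and 106 CPM in P2ry14-null, against 150, 121, 121, 117 and 120 CPM in WT. WT library 1 stood above the other 9 libraries, and without it the log2 fold change of Bcl10 was -0.06, against -0.13 ± 0.08 with it (exact permutation p = 0.198). Malt1 itself was at 0.04 ± 0.08. The TRAF ubiquitin ligases and their partners varied little: Traf2 was at -0.01 ± 0.04, Traf3 at 0.05 ± 0.05, Traf6 at -0.05 ± 0.04, Tank at 0.05 ± 0.06 and Ripk1 at -0.03 ± 0.04.

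The TNF receptors lay slightly lower in P2ry14-null by values within their spread. Tnfrsf1b had 122, 139, 142, 134 and 131 CPM in P2ry14-null, against 147, 130, 135, 154 and 136 CPM in WT, with the 2 groups interleaved (log2 fold change -0.07 ± 0.06; exact permutation p = 0.246). Tnfrsf1a, the receptor that recruits RIPK1, was at -0.08 ± 0.06. The surface protein Cd83, a marker of activated antigen-presenting cells, had 3.20, 8.91, 3.92, 7.01 and 5.22 CPM in P2ry14-null, against 5.603, 3.84, 4.58, 5.87 and 4.72 CPM in WT. P2ry14-null library 2, where class II genes were high, also had the highest value of Cd83, Traf1 and Ikbke. Without that library log2 fold changes were -0.016 for Cd83 (0.21 ± 0.23 with it), -0.37 for Traf1 (-0.17 ± 0.18 with it) and -0.21 for Ikbke (0.0057 ± 0.19 with it). The part of other cells in these 3 values was not tested.

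**Figure D3:**
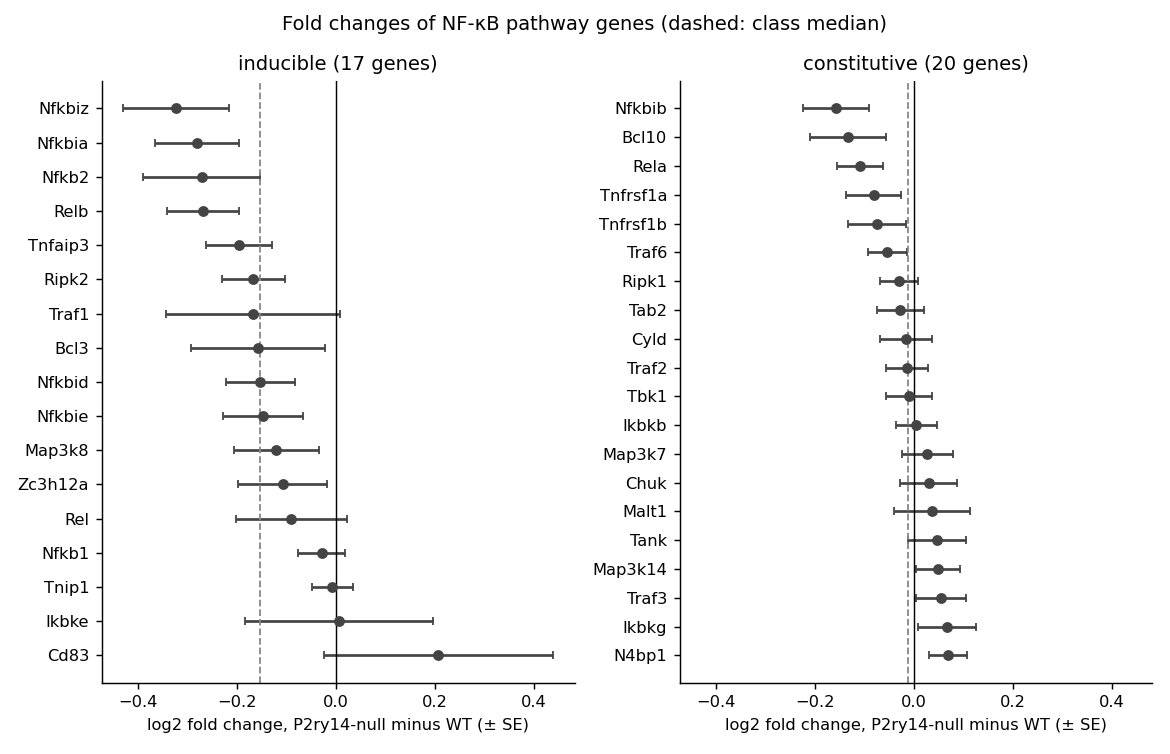
Log2 fold change of P2ry14-null minus WT for each gene (points; bars, SE from edgeR) in the inducible class (left, 17 genes) and the constitutive class (right, 20 genes), with the class median dashed. The inducible median lies at -0.15 and the constitutive one at -0.01, and none of the 37 passed the test across all genes.

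As classes, the inducible genes lay lower in P2ry14-null and the constitutive parts lay near equality. No test is given for the classes, because they were assigned with earlier results of these data known. Log2 fold changes were below 0 in 15 of 17 inducible genes, with a median of -0.15 and a range from -0.32 (Nfkbiz) to 0.21 (Cd83). They were below 0 in 11 of 20 constitutive genes, with a median of -0.01 and a range from -0.16 (Nfkbib) to 0.07 (N4bp1). Over all genes tested the median was 0.0025, and 48.8% lay below 0. An inducible median of -0.15 equals 0.900 of the WT level. By role, log2 fold changes were below 0 in all 3 cytoplasmic IκB genes, all 3 nuclear IκB genes and all 5 subunits. They were below 0 in 4 of 5 ubiquitin or RNase brakes, 6 of 9 adaptors and 2 of 3 receptor or surface genes. Among kinases and their partners 3 of 9 were below 0, with Ikbkg and Tab2 counted here and Ripk1 and Ripk2 counted as adaptors. Without WT library 4 the inducible median was -0.09, and 13 of 17 genes lay below 0. Without P2ry14-null library 2 the inducible median was -0.15 and the constitutive one 0.011. With P2ry14-null library 5 left out, 4 inducible genes had an unadjusted p under 0.05 and a lower level in P2ry14-null, against 7 with all libraries.

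The classes also differed in how much libraries of 1 group varied. The within-group SD of log2 CPM had a median of 0.149 in inducible genes and 0.0745 in constitutive genes, against 0.144 over all genes tested. Within the inducible class it ran from 0.0468 for Tnip1 and 0.0616 for Nfkb1 to 0.457 for Cd83, and genes with few reads, such as Cd83, Traf1 and Ikbke, were at its upper end. Tnip1 and Nfkb1 thus varied as little as constitutive genes and also lay near a log2 fold change of 0.

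Several libraries were high or low for many inducible genes, though not for all of them. For each gene, log2 CPM was set relative to its mean over the 10 libraries, and the median over the class was taken in each library. This inducible level was -0.11, -0.14, 0.04, -0.01 and -0.21 in P2ry14-null libraries 1 to 5, against 0.14, -0.03, -0.04, 0.26 and 0.04 in WT libraries 1 to 5. The groups overlapped: P2ry14-null libraries 3 and 4 lay above WT libraries 2 and 3. WT library 4 held the highest value of 9 of the 17 inducible genes, and P2ry14-null libraries 2 and 5 held the lowest value of 6 and 5. Exceptions included P2ry14-null library 2, which also held the highest value of 3 inducible genes, and WT library 1, where Bcl3 stood at 0.36 and Rel at -0.29 relative to their means. The constitutive level stayed between -0.03 and 0.03 in P2ry14-null and between -0.04 and 0.03 in WT. The difference between the levels of both classes was -0.10, -0.11, 0.0071, -0.03 and -0.19 in P2ry14-null, against 0.14, 0.02, -0.07, 0.24 and 0.03 in WT, with a within-group SD of 0.0988.

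**Figure D4:**
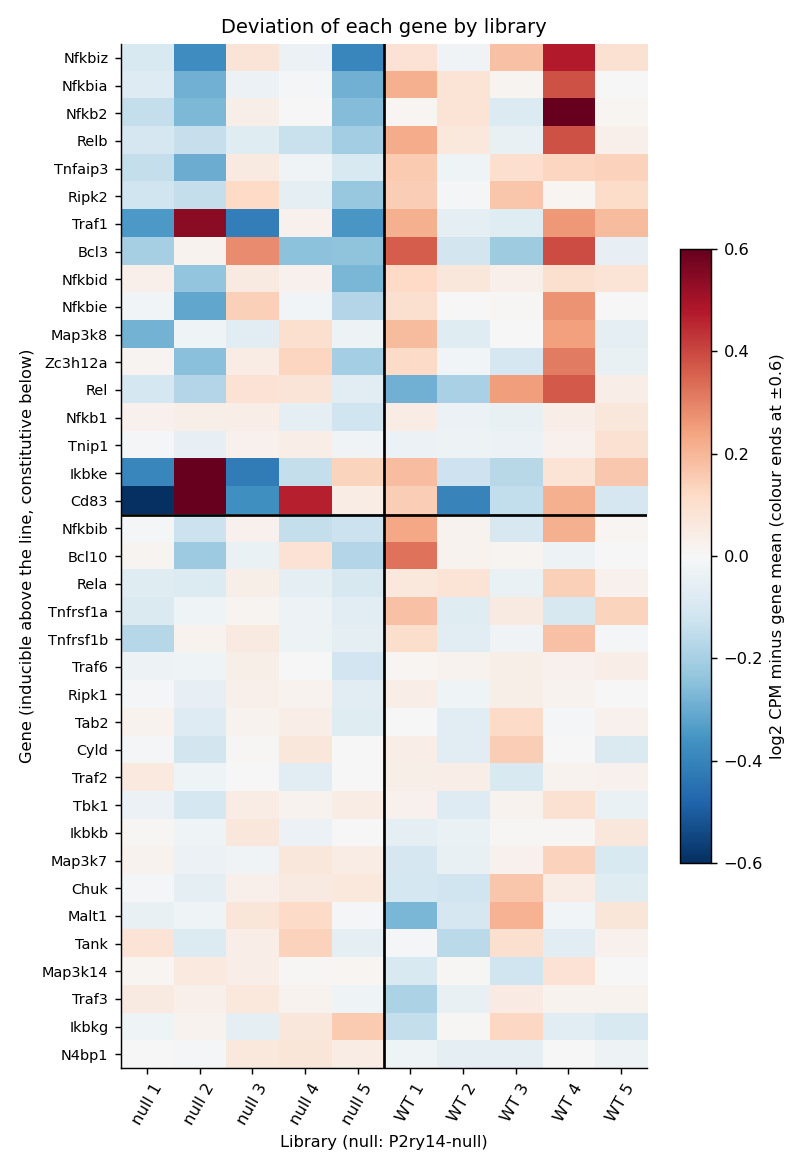
Log2 CPM of each gene minus its mean over the 10 libraries (red, above; blue, below; colour ends at ±0.6), with P2ry14-null libraries left of WT, inducible genes above the line and constitutive genes below. WT library 4 is red across most inducible rows, with the highest value of 9 of 17, while P2ry14-null library 2 has the highest value of 3 inducible genes, Traf1, Ikbke and Cd83.

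Other genes of the pathway were read as its output genes, its upstream receptors and its co-factors. Of 30 tested NF-κB output genes, 27 had a log2 fold change below 0 (median -0.17), 0 were called by edgeR and 1 by DESeq2, and in edgeR 10 had an unadjusted p under 0.05, all lower in P2ry14-null. Over all genes tested in edgeR, 48.8% lay below 0, and 2.67% had an unadjusted p under 0.05 with a lower level and 1.46% with a higher one. DESeq2 called 19 of 25217 genes. The 4 with the smallest p are 2 cytokines, a mitochondrial superoxide dismutase (Sod2) and an apoptosis inhibitor (Birc3). Il6 had 43.4 CPM in P2ry14-null and 71.0 CPM in WT (log2 fold change -0.71 ± 0.16), without overlap between groups. Over all genes tested, 0.359% separated with P2ry14-null below. Tnf had 20.9 CPM in P2ry14-null and 27.3 CPM in WT (-0.39 ± 0.12). Sod2 was at -0.22 ± 0.07 and Birc3 at -0.18 ± 0.07. Adjusted edgeR p were 0.568 for Il6 and 0.999 for the other 3. Of 31 upstream receptors and adaptors, 15 lay below 0 (median 0.0070) and 0 were called by edgeR or DESeq2, with 1 lower (Traf5, -0.16 ± 0.06) and 1 higher (Fadd, 0.15 ± 0.07) at an unadjusted p under 0.05. Nod1 was at -0.11 ± 0.05 and Cd14 at -0.21 ± 0.12. Of 32 tested ubiquitin and kinase co-factors, 16 lay below 0 (median -0.0016) and 0 were called by edgeR or DESeq2, with Nlrc5 (-0.38 ± 0.16) the 1 gene at an unadjusted p under 0.05 in edgeR, against 0 in DESeq2. Tnip2 was at -0.10 ± 0.06, Itch at 0.09 ± 0.06 and Map3k3 at 0.07 ± 0.05.

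Heat shock genes encode chaperones that respond to protein stress, and immediate early genes are switched on by many signals. The heat shock list had 11 of 11 genes below 0 (median log2 fold change -0.47), 10 of them with an unadjusted p under 0.05, 0 called by edgeR and 1 by DESeq2. Over all genes tested, 48.8% lay below 0 and 2.67% had an unadjusted edgeR p under 0.05 with a lower level. The heat shock level by library was -0.40, -0.35, 0.25, -0.15 and -0.61 in P2ry14-null, against 0.57, 0.30, 0.26, 0.01 and 0.14 in WT. P2ry14-null libraries 1, 2 and 5 were low in heat shock and inducible NF-κB genes alike, and P2ry14-null library 3 was the highest of its group in both. WT library 4 was the highest of its group in the inducible level and the lowest of its group in the heat shock level. Not all heat shock genes were low there: Hspa1a (4.10 CPM) and Hspa1b (11.1 CPM) had their highest values of all libraries in WT library 4. The 4 heat shock genes with the smallest p were Dnajb1 (-0.47 ± 0.09; edgeR adjusted p = 0.40), Bag3 (-0.38 ± 0.11), Hsp90aa1 (-0.55 ± 0.17) and Hspe1 (-0.46 ± 0.14). Immediate early genes had 9 of 12 below 0 (median -0.06), with Egr1 at -0.70 ± 0.18 (edgeR adjusted p = 0.952), Ier2 at -0.17 ± 0.08, Atf3 at -0.15 ± 0.09 and Jun at -0.12 ± 0.12. Groups did not overlap for 1 gene of each list, Dnajb1 and Egr1. Over all genes tested, 0.359% separated with P2ry14-null below.

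Markers of mast cells and basophils had log2 fold changes below 0 in 7 of 7 genes (median -0.59). An unadjusted p under 0.05 was found in 3 of them, all lower in P2ry14-null, with 0 called by edgeR and 1 by DESeq2. Over all genes tested, 48.8% lay below 0 and 2.67% met that threshold in edgeR with a lower level. The 7 genes summed to 58.6 to 81.6 CPM in P2ry14-null and 89.0 to 103 CPM in WT, without overlap. Of the 7, Cpa3, Mcpt8, Fcer1a, Ms4a2 and Cma1 were under 1 CPM in every library, and the sum came from Hdc and Gata2. Neutrophil genes had log2 fold changes above 0 in 7 of 8 tested (median 0.14), and 0 were called by edgeR or DESeq2. In DESeq2 an unadjusted p under 0.05 was found in 2 of them. In edgeR it was found in 3, all higher in P2ry14-null, against 1.46% of all genes in that direction. The 3 were S100a8 (1.97 ± 1.53 CPM in P2ry14-null and 0.981 ± 0.213 CPM in WT; log2 fold change 1.01 ± 0.38), Ngp (0.52 ± 0.23) and Ly6g (0.41 ± 0.15). For S100a8, P2ry14-null library 2 had 4.65 CPM and the other P2ry14-null libraries 0.951 to 1.66 CPM, against 0.754 to 1.23 CPM in WT. The summed level of the list, mostly Retnlg, was 3697 to 5397 CPM in P2ry14-null and 3701 to 4641 CPM in WT. The part of cell stress and of other cells in the NF-κB values was not tested.

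**Figure D5:**
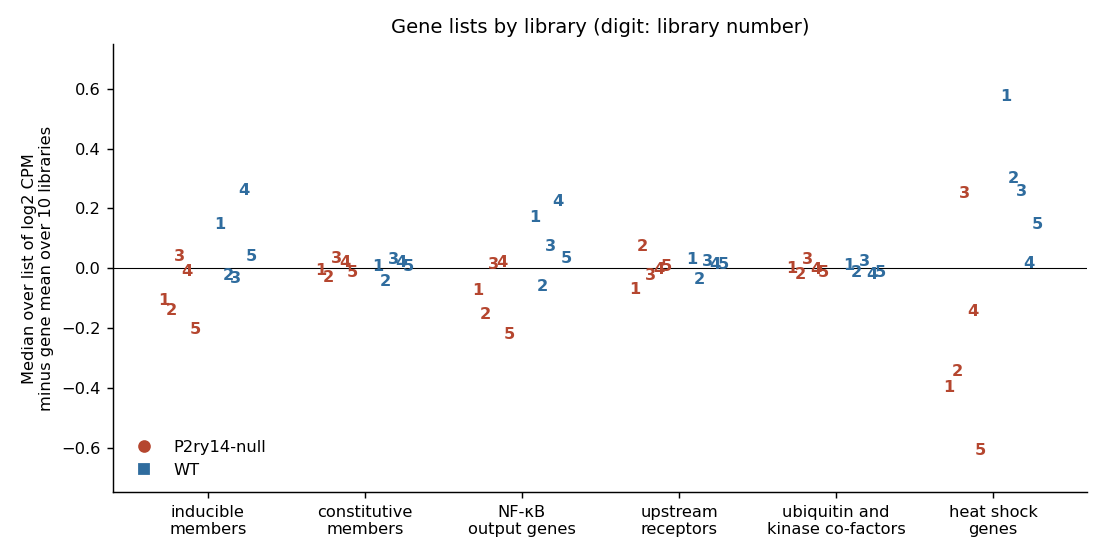
Level of 6 gene lists in each library (digits, library number; P2ry14-null left of WT in each pair), as the median over the list of log2 CPM minus the gene's mean over 10 libraries. Inducible genes run from -0.21 to 0.04 in P2ry14-null and from -0.04 to 0.26 in WT, constitutive genes stay between -0.04 and 0.03, and heat shock genes run from -0.61 to 0.25 in P2ry14-null and from 0.01 to 0.57 in WT.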

How the data were processed

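RNA of 10 libraries of sorted lung eosinophils was sequenced, 5 P2ry14-null and 5 WT, grouped and numbered by their titles. The deposited table gives raw read counts of each gene with mm10 positions. STAR 2.5, featureCounts 1.5.0-p1 of Subread, and DESeq2 are named by the submitters' processing notes, without annotation, strand setting or treatment of multiply matching reads, so genes that overlap on opposite strands cannot be told apart. From the counts, edgeR 4.0.16 (R 4.3.3) was run on the whole table with TMM factors, its default low-count filter, genotype as the sole term and the quasi-likelihood F test, adjusted by Benjamini-Hochberg over 15586 genes at 0.05; the fit was tested on simulated data. SE is the log2 fold change over the root of F. CPM used TMM-scaled totals, log2 CPM a prior count of 2, and RPKM exon lengths of GENCODE M21. Exact permutation tests were two-sided over 252 assignments. In a library, 3 reads, the limit that 0 allows, are 0.0162 to 0.0447 CPM, counting error only. Within-group pairs differed by 24.2 or more in chi-square per gene, so none looked like the same library counted again. That value cannot show separate mice. Each library was counted as 1 sample. Members, classes, lists and tests were chosen with earlier results of these data known. Values per library are given for the 8 inducible and 4 constitutive genes with the smallest p and the 2 of highest RPKM per class; Cd83 was added after its values were seen, and other lists give up to 4 genes of smallest p. DESeq2 1.42.0, other scalings and filters, a robust fit, a replicate block and each library left out were tried.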

Additional observations from a re-analysis of the deposited data

Results flagged for a closer look

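In 90 groups of 5 values, 5 had 1 library far from the other 4 by Dixon's criterion, where chance flags about 1 in 20. Nfkb2 had 261.6 CPM in WT library 4 and 161.9 to 180.9 CPM in the other WT libraries, and the ratio of Nfkb2 to Nfkb1 in RPKM was 1.72 there, against 1.112 to 1.255. Rela had 106.8 CPM in P2ry14-null library 3 and 97.5 to 99.86 CPM in the other P2ry14-null libraries. Bcl10 had 149.8 CPM in WT library 1 and 117.1 to 121.4 CPM in the other WT libraries. Traf2 had 32.95 CPM in WT library 3, below 35.73 to 36.18 CPM in the other WT libraries.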

How the results depend on the processing

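The inducible median kept its sign under all 20 alternatives (-0.18 to -0.09), as did the inducible minus constitutive difference (-0.17 to -0.095 against -0.14). Genes called numbered 19 in DESeq2 and 3 to 5 with single libraries left out (3 without WT library 4 or P2ry14-null library 1, 2, 3 or 5), against 6; edgeR and DESeq2 called 0 of the 37 in every setting. With library totals only, the constitutive median was 0.019, and log2 fold changes turned positive for Tnip1 (0.023), Nfkb1 (0.0019), Traf2 (0.017), Cyld (0.015), Tbk1 (0.021), Ripk1 (0.0012) and Tab2 (0.0028). Without the low-count filter, Ikbkb was at -0.0054 and Ikbke at -0.0058. With single libraries left out, the constitutive median ran from -0.016 to 0.011, Tnip1 from -0.019 to 0.015, Ikbke from -0.21 to 0.11, Cd83 from -0.016 to 0.35, Cyld from -0.04 to 0.0201, Tbk1 from -0.029 to 0.019, Ikbkb from -0.0079 to 0.023, Traf2 from -0.038 to 0.0007, Malt1 from -0.023 to 0.099 and Rel from -0.17 to 0.0055. The cause of these sign changes was not tested. They are of values near 0 or of genes with few reads, except Rel, which stood at -0.09 with all libraries. Same-numbered libraries correlated from -0.093 to 0.094, and 1 of 5 P2ry14-null libraries matched its own number best. Such correlations cannot exclude a shared preparation, and the labels state no pairing. With the replicate block 6 genes were called, the inducible median was -0.15 and Ikbke was at -0.049. Other single-gene values kept their direction.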
